A study of Homo sapiens with 4 samples.

Results

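Isolated peaks are taken here as peaks with no other peak of the same list close by, whereas runs of neighbouring peaks make up most of the list. The study is of H3K9me3, but its peak lists could not be tied to antibody or input samples, as explained below. The isolated peaks were selected on the positions of the peaks in the authors' broad peak lists on hg19. A peak of the IP_2 list on chromosomes 1 to 22 was taken as isolated when no other IP_2 peak lay within 20 kb of either edge, and as matched when it shared at least 1 bp with a peak of the IP_1 list. Of 256524 autosomal IP_2 peaks, 4803 (1.87%) were isolated, and 3727 of these (1.45% of the list) were also matched. The other 1076 isolated peaks had no IP_1 partner, and 251721 peaks were not isolated. The distances to neighbours and the overlap with IP_1 chose the members, so both are given as descriptions, and so are width and enrichment, which come from the same list.

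H3K9me3 is the methylation of histone H3 on which HP1 proteins dock, and it is written by enzymes of the SUV39H and SETDB1 families. It is known both from long repressed domains, in which the mark spreads along nucleosomes, and from short patches at single retroelements or target sites, to which KRAB zinc finger proteins bring SETDB1 through the corepressor KAP1.

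The chromatin came from U2OS cells, an established human osteosarcoma line, fixed with formaldehyde. The study comprised 2 samples precipitated with an Abcam antibody against H3K9me3 and 2 input samples without antibody. All of them carry the name KRAB-IDR3-TCF3 in their titles, which the labels do not explain. The labels point both antibody samples to the IP_2 list and both inputs to the IP_1 list, yet the peaks of both lists bear names of immunoprecipitations, so the lists were tied to no group of samples. Nothing says whether the samples of a kind came from separate cultures. Sequencing depth is unknown, no value carries a replicate error, and intervals cover counting error over peaks only.

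In the whole IP_2 list on these chromosomes, peaks covered 752 Mb, and neighbouring peaks were never closer than 1125 bp. The IP_1 list reached down to a lower enrichment, with a lowest fold of 1.44 against 1.90 in IP_2. It covered 47.6% of the autosomal span, against 26.9% for IP_2. Isolated matched peaks made up 6.57 Mb, or 0.873% of the length that IP_2 peaks covered.

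Many members lay close to the 20 kb limit. The distance to the nearer neighbour had a median of 28451 bp (quartiles 23410 and 38133 bp), and the distance to the farther one a median of 50484 bp. For peaks that were not isolated the nearer neighbour lay at a median of 1902 bp. In 1277 members (34.3%) the nearer neighbour lay between 20 and 25 kb away, and in 55 (1.48%) it lay over 100 kb away. The member closest to the limit was chr7:116792509-116792962, with a neighbour at 20003 bp and a fold of 2.14. The peak just outside it was chr3:185101277-185103787, with a neighbour at 19997 bp and a fold of 2.39.

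Some isolated peaks stood beside one another. When peaks were joined across distances of 20 kb or less, the list fell into 18782 groups, of which 4803 (25.6%) held a single peak. Groups of several peaks had a median length of 46.0 kb. The 7446 groups on either side of members had a median length of 17.2 kb (quartiles 1.99 and 54.4 kb) and a median of 3 peaks. These include single isolated peaks, so the lengths are not to be set against each other. Both neighbours belonged to groups of several peaks, or were absent, in 1749 members (46.9%). In 1565 members (42.0%) 1 neighbour was itself an isolated peak, and in 413 (11.1%) both were. Whether these counts exceed what the 25.6% share of single-peak groups would give was not tested. Isolated peaks with or without a partner formed 642 runs of 2 and 353 runs of 3 or more. The longest run held 10 peaks, 8 of them matched, over 642 kb at chr17:72974078-73615803.

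Isolated matched peaks were most frequent on chromosomes 22, 19 and 17, which are known to be rich in genes. On chromosome 22 they made up 91 of 2251 IP_2 peaks (4.04%, Wilson 95% interval 3.30 to 4.94%). On chromosome 19 they made up 145 of 3882 (3.74%, 3.18 to 4.38%), and on chromosome 17 200 of 5760 (3.47%, 3.03 to 3.98%). Chromosome 13, which is poor in genes, came next with 191 of 8113 (2.35%), before chromosome 16 with 138 of 6536 (2.11%). These 5 chromosomes held 20.5% of the members and 10.3% of all autosomal IP_2 peaks.

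The lowest shares were those of chromosomes 8, 10, 5, 20 and 2. Isolated matched peaks were 112 of 14946 on chromosome 8 (0.749%, 0.623 to 0.901%) and 108 of 12551 on chromosome 10 (0.860%, 0.713 to 1.04%). Chromosome 5 held 180 of 18842 (0.955%), chromosome 20 held 57 of 5795 (0.984%), and chromosome 2 held 255 of 24267 (1.05%). The largest number stood on chromosome 1, with 336 members at 1.55%.

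The number of members per Mb of chromosome followed how much of each chromosome was sparsely covered, which the rule favours. Sparse territory was the summed length of the distances between neighbouring IP_2 peaks of over 20 kb and under 1 Mb. It took up 31.3% of the autosomes once peak-free stretches of at least 1 Mb were left out, and it ranged from 19.7% on chromosome 8 to 49.1% on chromosome 17. Members numbered 1.39 per Mb over all autosomes, with 2.63 on chromosome 22, 2.60 on chromosome 19, 2.56 on chromosome 17 and 0.789 on chromosome 8. Per Mb of sparse territory the number was 4.46 overall and the spread was narrower, from 3.15 on chromosome 10 to 5.94 on chromosome 19. Chromosomes 22 and 17 followed chromosome 19 at 5.56 and 5.21 per sparse Mb, and chromosome 13 had 4.61. Over the 22 autosomes Spearman's rho of members per Mb was 0.937 with the sparse share and -0.546 with the share covered by IP_2 peaks. These describe chromosomes of 1 cell line that share the same peak calls, and the rule itself ties isolation to sparse territory.

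**Figure D1:**
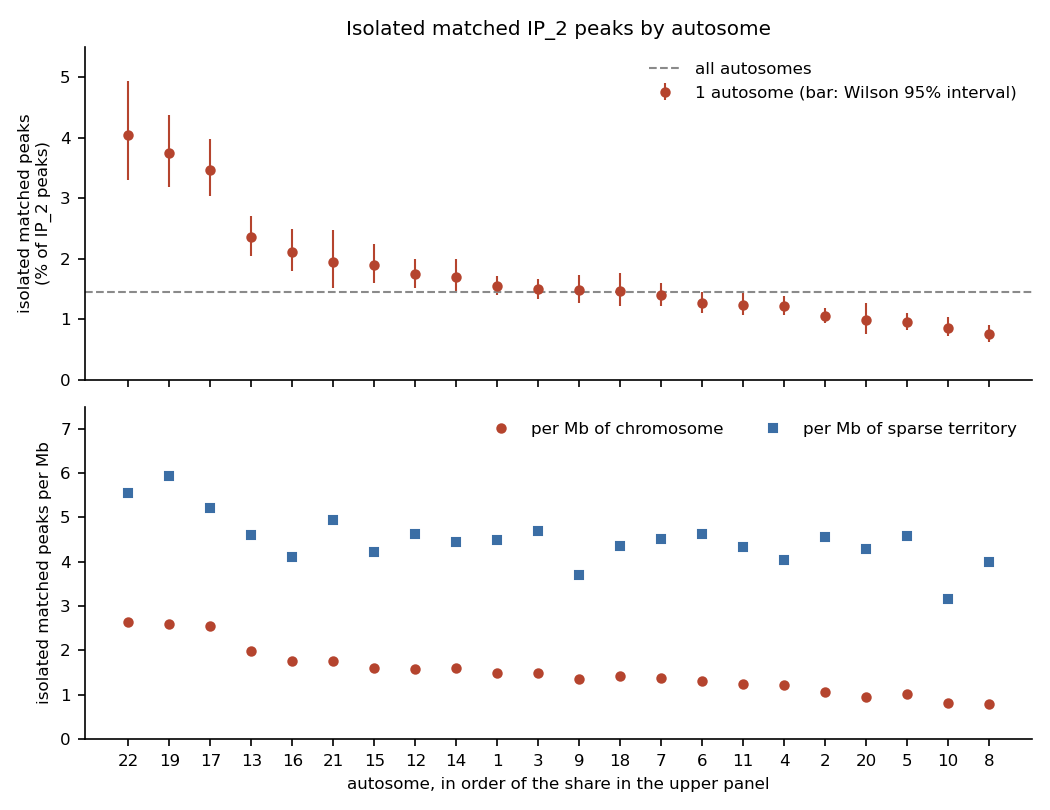
Upper panel: isolated matched peaks as a percentage of the IP_2 peaks of each autosome, with Wilson 95% intervals and the value over all autosomes (1.45%) as a dashed line. Lower panel: their number per Mb of chromosome and per Mb of sparse territory; chromosomes 22, 19 and 17 stand highest in the upper panel and differ less from the others per sparse Mb.

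Members were most frequent in windows of 1 Mb with little peak coverage, which the rule favours. They lay in 1564 of 2718 windows with a peak (57.5%). Windows were also ranked by IP_1 coverage, which the distance rule did not use. This coverage is not independent of the rules, since members needed an IP_1 partner and 90.5% of autosomal IP_2 peaks had one. The 544 lowest (up to 32.2% covered) held 1655 members (44.4%) against 9.45% of the other IP_2 peaks. The 544 highest (65.3% or more covered) held 79 members (2.12%) against 26.3% of the other peaks. The mean number per window was 3.04 ± 2.11 (SD over windows) in the 544 lowest and 0.145 ± 0.432 in the 544 highest.

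Single windows held up to 11 members. The window of 11 was chromosome 17 from 73000001 to 74000000, which had 21 IP_2 peaks in all and was covered 2.56% by IP_2 and 10.4% by IP_1. It contains most of the longest run described above. Windows of 9 members lay on chromosome 1 from 205000001, on chromosome 12 from 85000001, on chromosome 17 from 27000001 and on chromosome 19 from 3000001, with IP_2 coverage from 3.48% on chromosome 12 to 11.0% on chromosome 1. At least 5 members were found in 168 windows, 18 of them on chromosome 1, 16 on chromosome 17, 15 on chromosome 3, and 11 each on chromosomes 2 and 19. The median IP_2 coverage of these windows was 10.6%, against 24.7% over all windows with a peak. The windows named were chosen after their counts had been seen.

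Isolated matched peaks were narrower than peaks with near neighbours. Their median width was 1254 bp (95% interval of the median 1208 to 1303 bp), against 1603 bp (1595 to 1613 bp) for peaks that were not isolated and 1821 bp for those of them that were matched. The order was the same on 22 of 22 autosomes, with chromosome medians from 1062 to 1673 bp for isolated matched peaks and from 1208 to 2104 bp for peaks that were not isolated. The difference was largest among wide peaks. Widths of at least 5 kb were reached by 175 isolated matched peaks (4.70%), against 15.5% of peaks that were not isolated. Widths of at least 10 kb were reached by 17 members (0.456%), against 4.66%. At the other end, 27.2% of the members and 22.5% of the peaks that were not isolated were under 700 bp. When a match needed 50% of each peak or a partner at the lowest −log10 p of IP_2, the members' medians were 2102 and 1978 bp. These lay above 1603 bp for all peaks that were not isolated, but below the medians of 3911 and 3086 bp for those that met the same match rule.

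The median enrichment of isolated matched peaks was slightly lower than that of all peaks that were not isolated. The shares at or above each fold from 2.3 to 4 were higher among the members than among all those peaks. The highest folds of all stood among peaks that were not isolated, with a maximum of 7.36 in isolated matched peaks and of 298 in the others. The authors' fold had a median of 2.09 (2.08 to 2.10) in isolated matched peaks and 2.12 (2.12 to 2.12) in peaks that were not isolated. The median lay below on 17 of 22 autosomes and above on 3. The authors' lowest fold, 1.90, was the value of 18.4% of the members and 15.1% of the peaks that were not isolated. From a fold of 2.3 on, the order turned. A fold of at least 2.5 was found in 14.1% of the members against 10.8%, and a fold of at least 3 in 2.82% (105 members) against 1.15%. Against matched peaks that were not isolated, whose median fold was 2.14, the order turned later. The members' share was still lower at a fold of 2.3 (26.8% against 27.7%) and was higher from 2.4 (19.6% against 18.2%) to 4. With partners limited to the lowest −log10 p of IP_2, the median fold of the members was 2.33, against 2.12 for all peaks that were not isolated and 2.26 for those with such a partner.

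**Figure D2:**
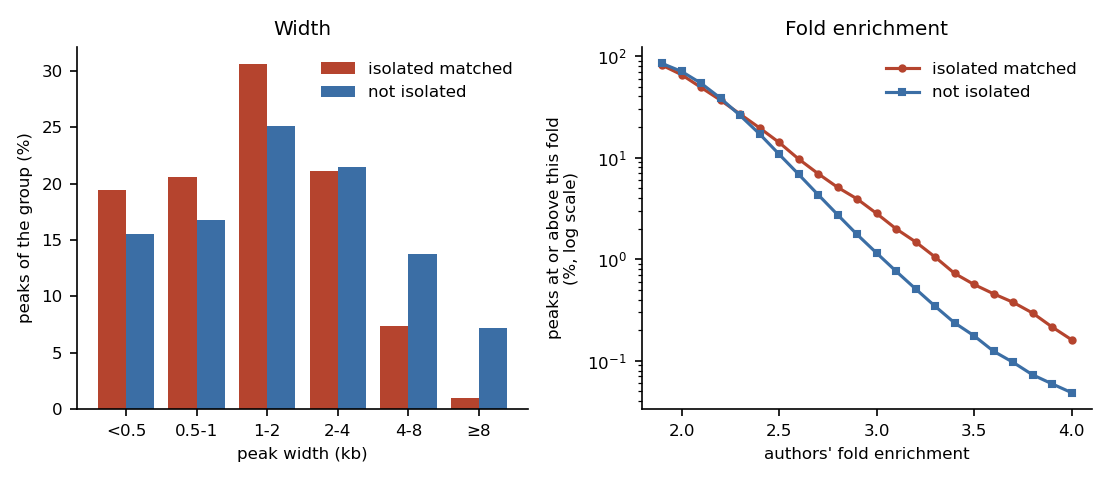
Left: percentage of isolated matched peaks and of peaks that are not isolated in 6 classes of width. Right: percentage of each group at or above a given value of the authors' fold enrichment, on a log axis; isolated matched peaks start lower (65.4% against 70.5% at a fold of 2) and end higher (0.161% against 0.0485% at a fold of 4).

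Low q values of the authors were also more frequent among members, although the highest −log10 q was 9.90 in isolated matched peaks and 1505 in peaks that were not isolated. A q at or under 0.05 was reached by 2.12% of all autosomal IP_2 peaks. Among isolated matched peaks it was reached by 160 of 3727 (4.29%, Wilson 95% interval 3.69 to 4.99%), and among peaks that were not isolated by 5285 of 251721 (2.10%, 2.04 to 2.16%). Among matched peaks that were not isolated the share was 2.29%. The share of members was higher than that of peaks that were not isolated on 19 of 22 autosomes. The members' share ran highest on chromosome 10 (9.26% of 108), chromosome 15 (7.58% of 132) and chromosome 1 (7.14% of 336). For peaks that were not isolated the shares there were 3.58%, 2.45% and 2.05%. These chromosomes were picked after their shares had been seen. Of the members, 30 (0.805%) had a −log10 q of 2 or more, against 0.251% of the peaks that were not isolated.

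Set against peaks of their own width, members from 4000 to 8000 bp had the higher fold. Apart from the narrowest class, median fold was higher in wider classes in both groups, so both were compared within classes of width, using only matched peaks on either side. Below 2000 bp the medians were nearly the same, for example 2.04 for members and 2.04 for other matched peaks under 500 bp. From 4000 to 8000 bp the median fold was 2.42 (2.38 to 2.45) in 275 members, against 2.27 (2.26 to 2.27) in 34734 other matched peaks. In that class 15.3% of the members (11.5 to 20.0%) reached a q of 0.05, against 3.69% (3.49 to 3.89%). From 1000 to 2000 bp the shares were 3.51% and 1.06%, and from 2000 to 4000 bp 5.20% and 2.08%. Only 36 members were 8000 bp wide or wider. Their median fold was 2.49 (2.34 to 2.64), against 2.41 (2.41 to 2.42), and their share with such a q was 16.7% (7.87 to 31.9%), against 8.34% (7.94 to 8.75%). Both intervals of the members held the value of the other matched peaks.

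**Figure D3:**
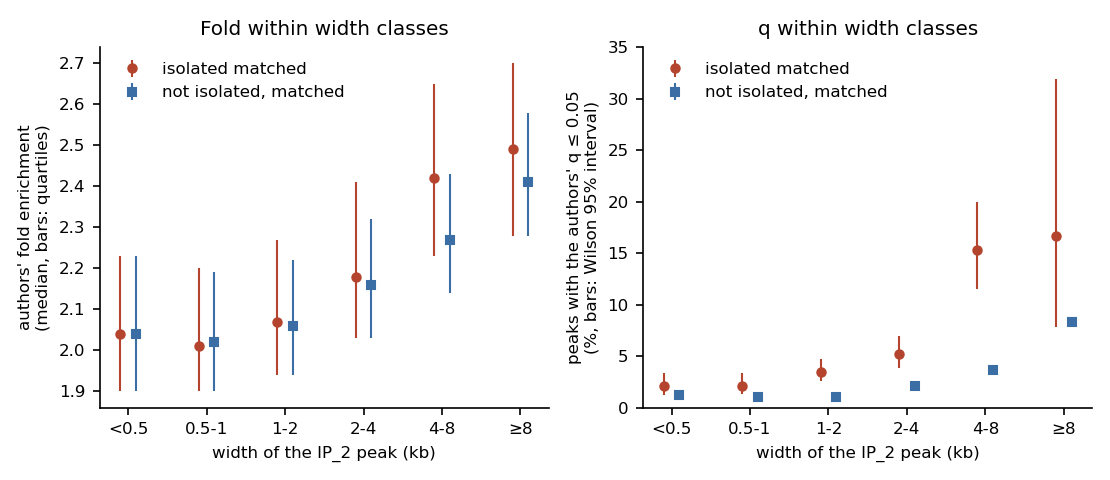
Left: median of the authors' fold enrichment by class of peak width, with bars from the first to the third quartile. Right: percentage of peaks with the authors' q at or under 0.05, with Wilson 95% intervals; isolated matched peaks stand above the other matched peaks most clearly from 4 to 8 kb (15.3% against 3.69%).

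How far away the neighbours lay made little difference to width or fold among the members. The median width was 1225 bp for members with the nearer neighbour at 20 to 25 kb and 1255 bp for those with it beyond 100 kb, where the interval ran from 723 to 1845 bp. The median fold was 2.09 and 2.10 in the same classes. The coverage by IP_1 within 20 kb did fall with distance, from 16.6% in the nearest class to 5.97% in the farthest, in 6 classes without an exception.

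**Figure D4:**
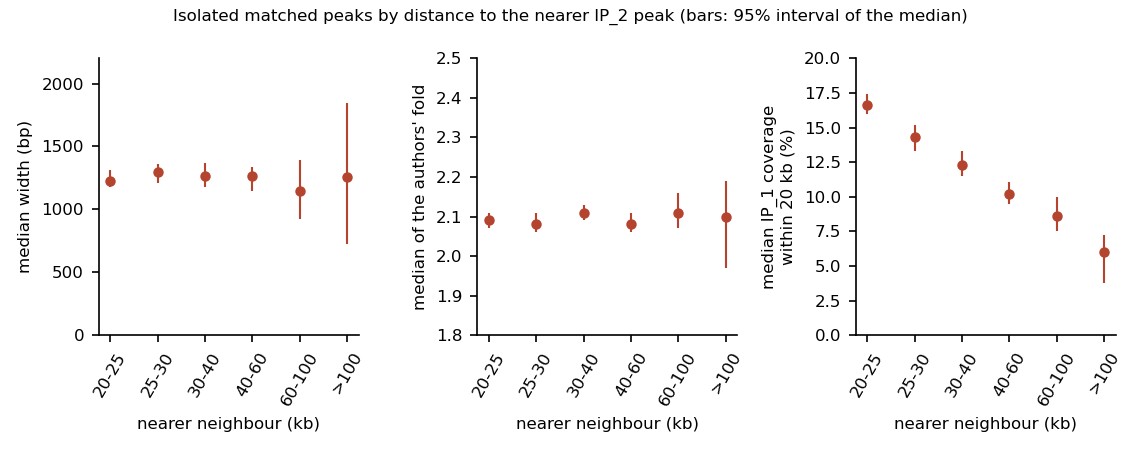
Median width, median of the authors' fold enrichment and median IP_1 coverage within 20 kb of isolated matched peaks, by the distance to their nearer IP_2 neighbour, with 95% intervals of the median. Width and fold stay level and IP_1 coverage falls from 16.6% to 5.97%, and the fold axis does not start at 0.

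Isolated peaks had an IP_1 partner less often than other peaks. The share with at least 1 bp in IP_1 was 77.6% (76.4 to 78.8%) for isolated peaks and 90.8% (90.6 to 90.9%) for peaks that were not isolated, against 90.5% of all autosomal IP_2 peaks. It was lower for isolated peaks on 22 of 22 autosomes, ranging from 69.0% on chromosome 18 to 83.8% on chromosome 19. The gap was widest for narrow peaks. Under 500 bp 56.4% of isolated peaks and 71.6% of the others were matched, and from 1000 to 2000 bp 84.5% and 92.5%. From 4000 bp on isolated peaks were matched without exception, and so were nearly all others (34734 of 34740 from 4000 to 8000 bp). With 50% of both peaks required in common, the order turned, at 30.3% of isolated peaks against 19.8% of the others. The median ratio of partner to peak width was 1.81 for members and 3.43 for other matched peaks.

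Each member had an IP_1 partner of its own, whereas the 228443 other matched peaks shared 147939 partners. The distance rule nearly fixes this contrast, because 2 members could share a partner only if it spanned over 20 kb. The members' partners had a median width of 2581 bp (quartiles 1439 and 4156 bp), against 7288 bp for the partners of other matched peaks. In this and the following values a shared partner was counted once for each of its peaks, so shared partners weigh more. A member lay wholly inside its partner in 1836 cases (49.3%), against 62.4% of other matched peaks, and had 2 or more partners in 108 cases (2.90%), against 6.39%. The median fold of the partners was 1.70 for members and 1.80 for other matched peaks. These stood at the 58.6th and the 72.9th percentile of the IP_1 list. The partner's fold was above the peak's own in 212 of 3727 members and in 13166 of 228443 other matched peaks. Across members Spearman's rho between the folds was 0.405 and between the widths 0.487, against 0.387 and 0.370 across other matched peaks. Peaks are not independent samples, and the tie at the lowest fold enters these values.

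Few members that stood alone in IP_2 also stood alone by 20 kb in IP_1, though more than among other matched peaks. The distance rule favours this contrast. Each other matched peak had an IP_2 peak within 20 kb, and 90.8% of the peaks that were not isolated had an IP_1 partner. Another IP_1 peak lay within 5 kb of the partner in 2503 members (67.2%), against 97.3% of other matched peaks. Over all members the median distance from the partner to its nearest IP_1 neighbour was 3048 bp, against 1441 bp over other matched peaks. In 186 members (4.99%, 4.34 to 5.74%) the partner was isolated by 20 kb in IP_1 too, against 0.0324% of other matched peaks. This share was different with a higher lower limit of the IP_1 list. With IP_1 peaks under the lowest −log10 p of IP_2 dropped, 1015 isolated IP_2 peaks kept a partner, and 78.7% of these partners were isolated, against 16.7% for other matched peaks. That limit left 60780 of 309756 IP_1 peaks and changed the members, and the parts of limit, peak density and members cannot be told apart.

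The 186 members isolated in both lists were narrow, with a median of 1056 bp (848 to 1231 bp), against 1266 bp (1217 to 1310 bp) for members whose partner had near neighbours. Their nearer IP_2 neighbour lay at a median of 37190 bp, against 28215 bp. A q at or under 0.05 was reached by 7.53% (4.54 to 12.2%), against 4.12% (3.52 to 4.83%). Within 1 Mb of a peak-free stretch lay 8.60% of them (5.36 to 13.5%), against 1.95% (1.54 to 2.46%), and the part of this in the q values was not tested. They made up 9 of 62 members on chromosome 21 (14.5%), 14 of 138 on chromosome 16 (10.1%) and 13 of 145 on chromosome 19 (8.97%), and 2 of 108 on chromosome 10 (1.85%).

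The ground around members was thin in both lists, which the rule favours. A peak that was not isolated had by rule another such peak within 20 kb, and 90.8% of these peaks shared bases with IP_1. The IP_1 contrast is therefore not independent of the rule. Within 20 kb of the members' edges the rule fixes IP_2 coverage at 0. IP_1 covered a median of 13.4% (13.1 to 13.8%) there, against 62.4% (62.2 to 62.5%) beside peaks that were not isolated. Without the partner's own overhang the medians were 9.05% and 42.9%. No IP_1 peak at all lay in these 20 kb beside 13 members (0.349%), against 9 (0.00358%) of the peaks that were not isolated. With IP_1 peaks under the lowest −log10 p of IP_2 left out, 2271 members (60.9%) had none, against 24.1% of the peaks that were not isolated.

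Away from the peak, coverage recovered slowly. IP_1 covered 38.3% of the first 2 kb from the members' edges, 15.0% from 2 to 6 kb and 11.8% from 6 to 20 kb. It rose to 23.3% from 20 to 50 kb, 28.9% from 50 to 100 kb and 33.4% from 100 to 200 kb. Beside peaks that were not isolated it stayed between 64.1% in the first 2 kb and 55.4% from 100 to 200 kb. IP_2 coverage around members was 8.68% from 20 to 50 kb and 15.9% from 100 to 200 kb, beyond the reach of the rule, against 33.8% and 31.7% around peaks that were not isolated. At 200 kb the groups had not yet met. Isolated peaks without a partner had surroundings close to those of members from 6 kb on. IP_1 coverage beside them was 11.0% from 6 to 20 kb and 32.5% from 100 to 200 kb. In the first 2 kb it was 13.1%, against 38.3% beside members. The value for members includes the overhang of the required partner, which was wider than the peak in 80.5% of members.

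**Figure D5:**
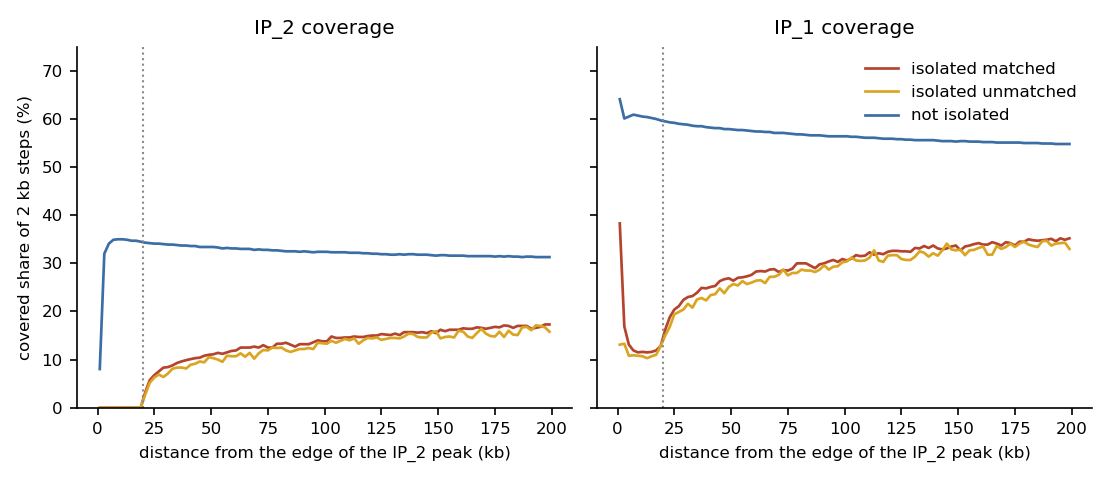
Mean percentage of each 2 kb step covered by IP_2 peaks (left) and IP_1 peaks (right), by distance from the edge of an IP_2 peak, both sides together, for isolated matched, isolated unmatched and not isolated peaks. The dotted line marks 20 kb, up to which the rule sets IP_2 coverage of isolated peaks to 0; at 100 to 200 kb IP_1 covers 33.4% around members and 55.4% around peaks that are not isolated.

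Members were found beside long peak-free stretches more often than peaks that were not isolated. The rule favours this, because the positions of IP_2 peaks set both the stretches and the members. There were 27 stretches of at least 1 Mb without an IP_2 peak on 18 of the autosomes, which stand in here for gaps such as those at centromeres. Within 1 Mb of these lay 85 members (2.28%, 1.85 to 2.81%), against 1.24% (1.20 to 1.28%) of the peaks that were not isolated. Within 1 Mb of the first or last peak of a chromosome lay 93 members (95% interval of the share 2.04 to 3.05%), against 1.18%. For isolated peaks without a partner the 2 shares were 2.70% and 2.60%. A peak at such a border can have a near neighbour on 1 side only. Among the members near the stretches 10.6% reached a q of 0.05 (5.67 to 18.9%), against 4.15% (3.55 to 4.84%) of the members elsewhere. The shares for peaks that were not isolated were 5.55% and 2.06%.

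The member of highest fold bordered such a stretch. It was chr1:142535443-142540685, 5243 bp wide with a fold of 7.36 and a −log10 q of 9.90, between a peak-free stretch of 21050 kb and a neighbour at 22.3 kb. Its IP_1 partner had a fold of 5.63 and was itself isolated by 20501 bp. Next came chr10:42661332-42667633, 306 kb from a peak-free stretch, with a fold of 5.49 and a partner of 5.48 that matched it over 100% of its length.

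The other 8 of the 10 highest lay over 1 Mb from any such stretch or on a chromosome without one. Ground before the first or after the last peak of a chromosome was not counted as a stretch. The peak chr4:57802012-57805478 had a fold of 4.56 (partner 2.62), with neighbours at 32.9 and 32.4 kb. The peak chr4:167501180-167501686 had a fold of 4.07 in 507 bp, and its partner of 560 bp had 4.08. On chromosome 22, chr22:19833955-19836009 and chr22:37722826-37724112 had folds of 4.01 and 3.94, with partners of 2.27 and 3.07. On the short arm of chromosome 1, chr1:41495615-41501162 and chr1:21305158-21307698 had folds of 3.91 and 3.90, with partners of 2.85 and 2.80. The remaining 2 of the 10 highest, chr15:20310367-20310937 (fold 4.50) and chr1:144070231-144070668 (3.84), each had an isolated partner, of fold 1.92 and 2.27. The one on chromosome 15 lay 0.307 Mb from the first or last peak of its chromosome, and the one on chromosome 1 lay 1.53 Mb from a stretch.

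The widest member was chr7:61510498-61560234, at 49.7 kb with a fold of 3.56. It lay 456 kb from a peak-free stretch, its neighbours stood 262 and 113 kb away, and its partner, 49.8 kb wide with a fold of 3.18, was isolated in IP_1 too. It was followed by chr10:38868886-38888826 at 19.9 kb (fold 3.49), 266 kb from a stretch. Away from stretches the widest were chr2:99738785-99756507 at 17.7 kb (fold 3.03, partner 2.77), chr11:43481488-43498667 at 17.2 kb (2.51, partner 2.00) and chr17:77529849-77544857 at 15.0 kb (2.26, partner 1.96). The last of these shared 88.6% of its length with IP_1. The other 5 of the 10 widest ranged from 12663 to 12982 bp and lay on chromosomes 22, 8, 2, 5 and 17, with folds from 2.41 to 2.74. Of the 10, 4 lay within 1 Mb of a peak-free stretch and 2 had an isolated partner.

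The 10 most isolated members had folds from 1.90 to 2.69. The longest distance to a nearer neighbour, 438 kb, belonged to chr5:70308235-70310130, which bordered a peak-free stretch of 1523 kb on its other side. It had a fold of 2.11 and shared 7.07% of its length with IP_1. It was followed by chr1:143537093-143537410 (391 kb, fold 1.90), chr16:33239522-33239987 (360 kb, 1.96) and chr21:10085090-10087044 (340 kb, 2.53). The last of these had an IP_1 partner of fold 2.21 with no other IP_1 peak within 236883 bp. The peaks chr22:16554458-16554883 and chr5:180900102-180900824 were the first and the last peak of their chromosomes and so had 1 neighbour each, at 293 and 232 kb. The remaining 4 had distances from 191 to 229 kb and folds from 1.97 to 2.39, and lay on chromosomes 1, 15, 10 and 16. Of these, chr10:128853445-128855850 (216 kb, fold 1.97, partner 1.58) lay 6.58 Mb from the last peak of its chromosome.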

How the data were processed

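Reads of 2 H3K9me3 antibody samples and 2 input samples of U2OS cells went through MACS2 2.2.7.1, Bowtie2 2.5.0, Trim Galore 0.6.7 and bcl2fastq 2.17 with hg19. These names come, per the submitters' processing notes, without role or order. Not given in the sources used here: peak cutoff, use of input, duplicates, pooling. The authors' deposited fold of a peak is a ratio over the peak caller's background, and the deposited −log10 p and −log10 q are the authors' values too. Both lists have no header and were read by the usual column order of a broad peak file. Peak lists hold no counts, so depth is unknown.

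Distances were counted from edge to edge, and a peak was isolated when both exceeded 20000 bp. The partner was the IP_1 peak sharing most bases. Coverage within 20 kb was summed over both sides. Windows were 1 Mb. Shares carry Wilson 95% intervals and medians binomial order-statistic 95% intervals. No test was made, because no list belongs to a sample. Functions for distance, overlap and coverage were checked against direct counting on made-up peaks. The tools were matplotlib 3.10.9, scipy 1.17.1, pandas 2.3.3 and numpy 2.4.6 under Python 3.11.15.

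The members, the rules and the alternatives were chosen with earlier results of these data known. The named regions are the 10 members of highest fold, the 10 widest and the 10 most isolated, the 5 chromosomes with the highest and the 5 with the lowest share, and the peaks at the 20 kb limit. The alternatives were isolation by 10 or 50 kb, 50% of each peak shared, no partner needed, IP_1 at the limit of IP_2, IP_2 above its median fold, borders left out and chromosome 1 left out. Gene names and base sequences were not used here, because the gene and promoter tables at hand are on GRCh38.p14. Coordinates are 1-based hg19 positions.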

Additional observations from a re-analysis of the deposited data

Results flagged for a closer look

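The X chromosome lies outside the autosomal comparison, and the same rule was applied there as well. It held 378 isolated IP_2 peaks with an IP_1 partner among 8395 IP_2 peaks (4.50%, Wilson 95% interval 4.08 to 4.97%), a share above the highest autosomal one (4.04% on chromosome 22, 3.30 to 4.94%), with overlapping intervals. Isolated peaks on X had a partner in 54.4% of cases, against 80.3% of peaks on X that were not isolated. The median width of isolated matched peaks on X was 996 bp, against 1160 bp for peaks on X that were not isolated, and the median fold was 1.98 against 2.04, so that both lay on the same side of the other peaks as on the autosomes.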

How the results depend on the processing

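No paired analysis was possible because neither list could be tied to a sample or replicate number. Of 46 values under 8 alternatives, 17 stayed within 1.5 times (counts) or within the 95% interval, 24 moved and 5 turned their order against peaks that were not isolated. Leaving out chromosome 1, or peaks within 1 Mb of borders, moved none of them. The number of members was 12479 at 10 kb, 447 at 50 kb, 1454 with 50% of each peak shared, 1015 with IP_1 at the limit of IP_2, and 9540 among IP_2 peaks above the median fold. At 10 kb the median width was 1308 bp, the matched share 79.5%, the share with an isolated partner 7.66% and IP_1 coverage 24.8%. At 50 kb the matched share was 74.9% and coverage 8.40%. With 50% shared, width (2102 bp against 1603 bp), fold (2.19 against 2.12) and matched share (30.3% against 19.8%) turned, the isolated partner share was 6.67% and coverage 10.5%. With IP_1 at the limit of IP_2, width (1978 bp against 1603 bp) and fold (2.33 against 2.12) turned, the matched share was 21.1%, the isolated partner share 78.7% and coverage 3.35%. Against peaks that met the same match rule, only the fold at the limit of IP_2 turned (2.33 against 2.26). With no partner needed, width was 1030 bp, fold 2.06 and coverage 12.5%. Above the median fold, width was 1818 bp, fold 2.30, the matched share 89.2%, the isolated partner share 1.13% and coverage 31.6%. The members differ between these rules by construction. Causes of the turned orders were not tested, and depth limits are unknown.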

Other observations

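The 1076 isolated IP_2 peaks without an IP_1 partner had a median width of 474 bp (441 to 527 bp) and a median fold of 1.94 (1.93 to 1.97), and 40.4% of them carried the authors' lowest fold. A q at or under 0.05 was reached by 6 of them (0.558%, 0.256 to 1.21%). Their nearer neighbour lay at a median of 29212 bp. By the same distance rule the IP_1 list held 1131 isolated peaks on the autosomes, or 0.365% of its 309756 peaks.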
